A study of Mus musculus with 18 samples.

Results

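Imprinted genes, with Asb4 among them, were followed across limb buds of the mouse embryo. The genes were taken by symbol from a list of 39, and 36 of them had a row in at least 1 of the 3 deposited expression tables, which together held 14686 genes. All 36 had a row in the CD1 table and in the e11.5 table, and 35, all but Nap1l5, had a row in the e11.0 table. Dio3, Phlda2 and Slc22a18 had no row in any table and were not analysed here. Every listed gene exceeded 0.5 CPM (counts per 1000000) in at least 3 libraries, so the 36 were those above that level. By their commonly expressed allele 13 were taken as maternal, 20 as paternal and 3 (Ube3a, Gnas and Blcap) as dependent on tissue or isoform. The libraries do not separate alleles, so each level is the sum over both.

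The series held 18 RNA libraries from limb buds, 3 in each of 6 groups. Forelimb buds of wild type CD1 embryos at e10.5 were set beside hindlimb buds of wild type CD1 embryos at e11.0, which the design matches by morphology. Hindlimb buds of wild type and of Pitx1 null embryos, both labelled BALB/c, were compared at e11.0 and again at e11.5, to ask which genes depend on Pitx1, a homeodomain factor of the hindlimb. Limb type and age cannot be told apart in the CD1 comparison. Libraries of e10.5 and e11.0 were stranded and made after ribosomal depletion, whereas those of e11.5 were made after mRNA enrichment. By their titles, replicates 1 and 2 of every group came from 1 sequencing run, called the shared run here, and replicate 3 from another run at each Pitx1 stage. Replicate 3 of e11.5 was unstranded. No run is named for replicate 3 of CD1, and its forelimb and hindlimb libraries were taken as 1 run in the fits. Neither litters nor pooling are described, nor which part of Pitx1 the null allele lacks, so p-values measure the spread between these libraries, which may be technical.

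Genomic imprinting is the expression of a gene from only the maternal or only the paternal allele. It is usually set by DNA methylation laid down in the germ line. Imprinted genes lie in clusters, in which a control region and often a long noncoding RNA govern several coding genes at a distance. Many act on growth of the embryo and placenta, among them the growth factor Igf2, its clearing receptor Igf2r and the cell cycle inhibitor Cdkn1c. Asb4, a substrate adaptor of a ubiquitin ligase, lies in the cluster of Peg10 and Sgce and is expressed from the maternal allele.

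Asb4 and Plagl1 were the genes of large change at both Pitx1 stages for which promoter sequence was at hand, and their upstream stretches are printed to show how unlike they are in CG content. The sequences are those of RefSeq on GRCm38.p6, plus strand, 5′ to 3′, with CG dinucleotides in capitals. The stretch before the outer Asb4 start lies outside any annotated gene, that before the inner start lies in an intron of Asb4, and that of Plagl1 is the part not covered by an annotated exon.
Asb4 outer start, chr6:5383136-5383385: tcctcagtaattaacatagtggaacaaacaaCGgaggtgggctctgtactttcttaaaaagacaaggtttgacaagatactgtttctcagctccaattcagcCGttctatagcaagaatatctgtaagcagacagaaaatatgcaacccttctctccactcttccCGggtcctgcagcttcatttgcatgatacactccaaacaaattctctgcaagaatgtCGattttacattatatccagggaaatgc
Asb4 inner start, chr6:5390160-5390409: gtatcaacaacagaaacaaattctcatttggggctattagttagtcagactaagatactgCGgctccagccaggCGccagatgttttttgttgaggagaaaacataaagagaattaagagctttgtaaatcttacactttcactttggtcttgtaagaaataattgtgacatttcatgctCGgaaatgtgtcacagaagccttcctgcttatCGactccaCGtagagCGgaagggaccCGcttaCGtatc
Plagl1 start, chr10:13090582-13090690: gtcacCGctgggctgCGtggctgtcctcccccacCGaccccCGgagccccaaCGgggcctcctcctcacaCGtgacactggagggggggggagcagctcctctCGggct
The Asb4 stretches held 4 and 8 CG dinucleotides in 250 bases, with 40.8% and 41.6% G or C, while the Plagl1 stretch held 7 in 109 bases with 73.4%. Of the 36 genes 30 were matched to RefSeq starts, 48 in all, and the median count of CG dinucleotides in the 300 bases around a start was 13, against 7 for the 32851 starts of 27025 genes. The core motif of Pitx factors, TAATCC or GGATTA on the other strand, was in 5 of the 48 windows of 300 bases (10.4%), against 7.06% of all starts. Those windows were 1 each of Igf2, Ppp1r9a and Airn and 2 overlapping ones of Mest, and none of the Asb4 or Plagl1 windows held these letters.

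The libraries held 17.4 to 53.6 M reads on listed genes (M, 1000000 reads), so that 1 read was worth at most 0.0575 CPM. At e11.0 Pitx1 itself was at 136, 114 and 122 CPM in wild type and 22.9, 19.3 and 21.3 CPM in null hindlimbs. At e11.5 wild type libraries held 319, 329.6 and 364 CPM of it and null libraries 72.1, 78.8 and 88.6 CPM. Positions of reads within Pitx1 are not given, so these values bear on the labels only as far as the counted part is deleted. All 10 markers of limb bud mesenchyme were listed in each table, summing to 1003 to 2631 CPM. Of these 10, 5 were lower in null hindlimbs at e11.0 (2 to 7 with 1 library left out; summed level 1388 to 1731 CPM in wild type and 1003 to 1346 in null) and 5 were higher at e11.5 (2153 to 2494 and 2072 to 2631), while in CD1 4 were lower and 1 higher in hindlimb (1786 to 2344 and 1656 to 2069). Without null replicate 1 of e11.5, 6 were higher and 3 lower. Other cell types moved with the Pitx1 groups. At e11.0, 7 of 8 endothelial genes were lower (summed level 182 to 256 CPM in wild type and 102 to 194 in null), 3 of 4 listed muscle precursor genes were lower (83.5 to 94.7 and 64.6 to 72.1), and 5 of 8 surface ectoderm genes were higher (291 to 713 and 384 to 860). After trimmed-mean and median-ratio scaling 4 and 3 endothelial genes were lower. The endothelial and ectoderm counts were 7 and 7 without wild type replicate 2, 4 and 1 without null replicate 1, 1 and 0 without null replicate 2, and 0 without wild type replicate 1 or 3 or null replicate 3. With the shared run alone both counts were 0. The muscle count was 1 without replicate 3 of either group, and 2 to 4 without the others. Erythroid genes, 6 of 7 listed, summed to 4699 to 10965 CPM in wild type and 5943 to 17311 CPM in null libraries, and 0 were called by limma, but 5 were higher without wild type replicate 2 and 3 by the authors' deposited table. Pax7 and Myod1, which mark committed muscle precursors, had no row at e11.0 or in CD1, where 2 of 4 listed muscle precursor genes were lower in hindlimb. At e11.5, 6 of 6 muscle precursor genes were lower (106 to 123 and 71.7 to 80.9), 2 of 8 endothelial genes were lower (379 to 415 and 328 to 377) and 2 of 5 listed macrophage genes were lower (15.9 to 21.6 and 11.6 to 15.6). Surface ectoderm genes summed to 275 to 327 CPM in wild type and 331 to 387 in null, with 1 higher, or 4 after either scaling and 0 without replicate 2 or 3 of either group. The muscle count was 3 without wild type replicate 1 or null replicate 2, and the endothelial and macrophage counts were 0 without any library but null replicate 1 and wild type replicate 1, respectively. Their part in the changes of imprinted genes was not tested, and in bulk RNA fewer cells of a type and less RNA per cell cannot be told apart.

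Some of the imprinted genes were abundant, H19 most of all. The 36 genes took 1.54% to 2.39% of all CPM. H19, the maternal long noncoding RNA beside Igf2, was at 4004 to 6809 CPM, between rank 2 and rank 7 of each library. Per kilobase of exon H19 led in every group, with 2585 CPM per kb in wild type at e11.0, followed there by Mest (563), an alpha/beta hydrolase family protein, Nnat (291), a membrane proteolipid, and Igf2 (240.2). Asb4 stood at 80.3 CPM per kb in that group. Rtl1, a retrotransposon-derived gene of placental vessels, and Magel2 were lowest, at 0.276 and 0.419 CPM per kb.

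**Figure D1:**
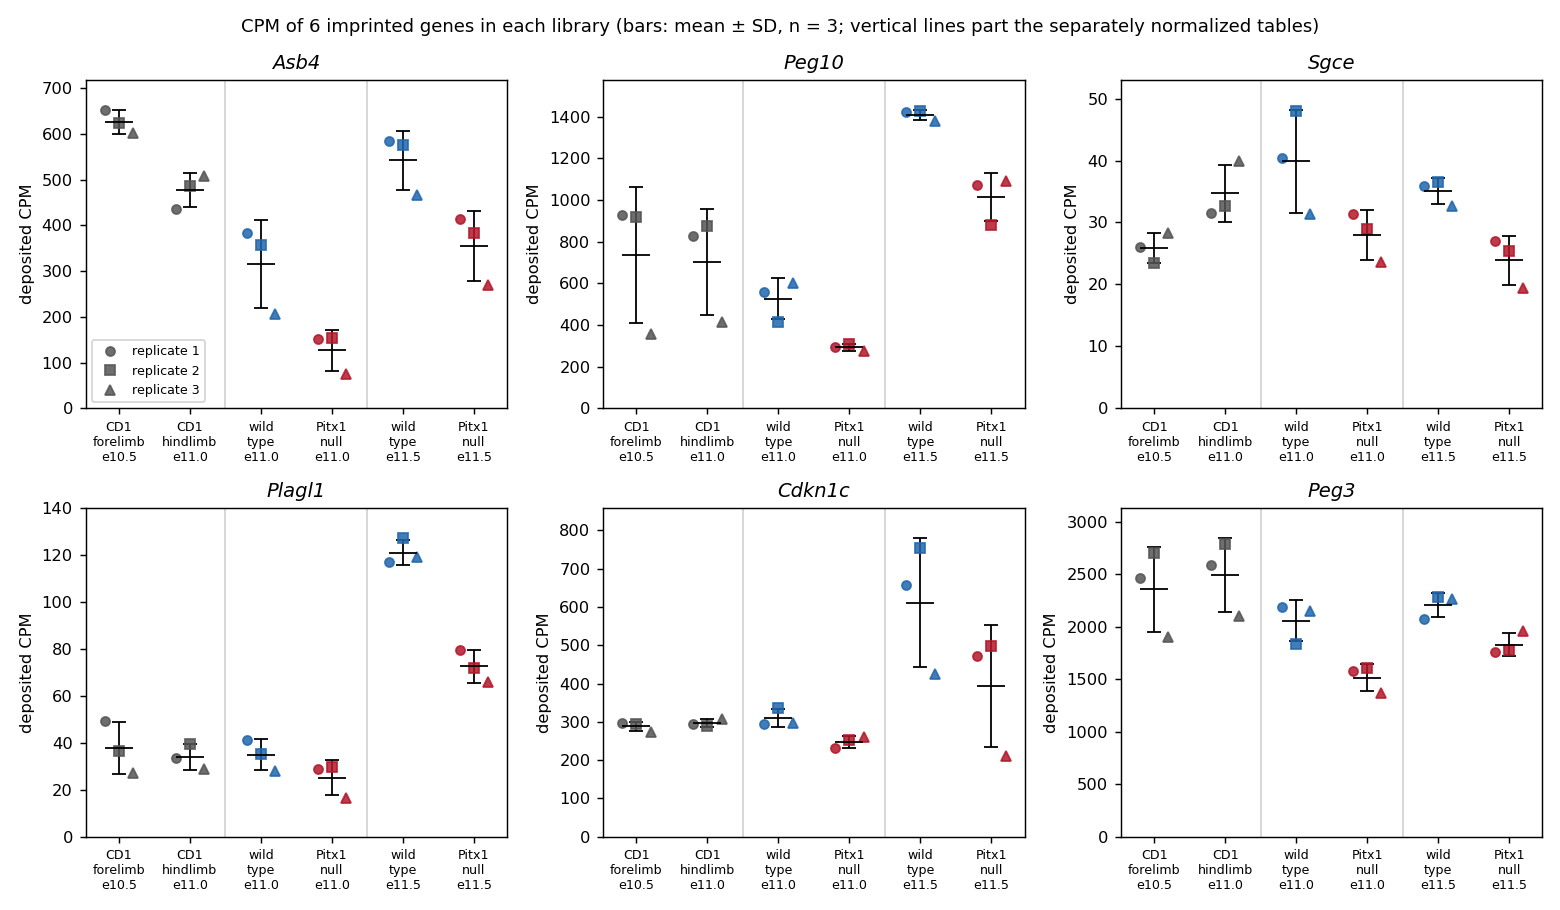
Deposited CPM of Asb4, Peg10, Sgce, Plagl1, Cdkn1c and Peg3 on the vertical axes, by group on the horizontal axes. Each symbol is 1 library (circle, square and triangle for replicates 1, 2 and 3) and each bar the mean ± SD of 3. Asb4 libraries of Pitx1 null hindlimbs at e11.0 sit between 75.8 and 153 CPM, below every wild type library of that stage.

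In Pitx1 null hindlimbs at e11.0 the imprinted genes called by limma, on the CPM as deposited, were nearly all lower. Of 35 tested, 12 fell and 1 rose by limma, or 37.1%, where 13.1% of all 14027 genes were called, 8.41% lower and 4.73% higher. The median log2 fold change was -0.20 against -0.07 for all genes. Among genes of a mean of at least 10 CPM the calls were 13 of 31, against 15.8% of all such genes. The largest change was that of Asb4. All 4 genes followed here of its cluster on chromosome 6 fell.

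Each change below is a log2 fold change on the log2(CPM + 1) scale ± SE, from a limma fit of 3 libraries against 3 with terms for group and run. A gene was called where its Benjamini-Hochberg adjusted p over all listed genes was under 0.05. Where values of both groups follow each other, those of wild type, or of forelimb, come first, in the order of replicates 1, 2 and 3. Fits with trimmed-mean or median-ratio scaling rescaled the CPM between libraries, and fits with a replicate block had the replicate number in place of the run.

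Asb4 (ENSMUSG00000042607, chromosome 6, 5383386 to 5433022, plus strand, GRCm38) was at 384, 357 and 205 CPM in wild type replicates 1, 2 and 3 and at 153, 153 and 75.8 CPM in the null libraries. Every null library lay below every wild type library, although replicate 3 of both groups was lower than the others. The log2 fold change was -1.32 ± 0.07, adjusted p = 5.84e-06, a 2.50-fold fall. It was the 6th most negative of 14027 changes and the 2nd smallest adjusted p of the table. Leaving out any 1 library kept the call (largest adjusted p = 0.000688), and the shared run alone gave -1.27 (adjusted p = 0.000119).

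Peg10, a paternal gene derived from a retrotransposon and needed for the placenta (ENSMUSG00000092035, chromosome 6, 4747306 to 4760517, plus strand), was at 561, 417 and 603 CPM in wild type and 296, 309 and 276 CPM in null hindlimbs, without overlap. Its log2 fold change was -0.83 ± 0.12, adjusted p = 0.00404, and the call was lost without wild type replicate 1 (adjusted p = 0.0508). Sgce, the epsilon subunit of the sarcoglycan complex, is paternal and starts head to head with Peg10. It was at 40.4, 48.0 and 31.3 CPM in wild type and 31.4, 28.9 and 23.6 CPM in null hindlimbs, where null replicate 1 overlapped wild type replicate 3 (-0.49 ± 0.09, adjusted p = 0.012). Ppp1r9a, a maternal gene for an actin-binding scaffold of synapses, was at 86.4, 84.6 and 83.1 CPM in wild type and 59.1, 64.5 and 71.0 CPM in null hindlimbs, without overlap (-0.38 ± 0.08, adjusted p = 0.0163). Sgce was not called without wild type replicate 1 or 3 (adjusted p = 0.0508 and 0.0557) or null replicate 2 or 3 (0.0714 and 0.0556), and Ppp1r9a not without wild type replicate 1 (0.107) or null replicate 1 or 2 (0.0515 and 0.0769).

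In the Peg3 cluster of proximal chromosome 7, the paternal zinc finger gene Peg3 was at 2190.2, 1838 and 2148 CPM in wild type and 1574, 1609 and 1365 CPM in null hindlimbs (-0.44 ± 0.09, adjusted p = 0.0204). Its paternal neighbour Usp29, related to ubiquitin proteases, was at 92.2, 89.0 and 78.3 and 77.5, 72.9 and 57.5 CPM (-0.32 ± 0.07, adjusted p = 0.0227). The groups did not overlap for either gene. The maternal zinc finger gene Zim1 of the same cluster was at 59.5 to 74.1 CPM in wild type and 56.2 to 70.5 CPM in null libraries, with a log2 fold change of -0.05 (adjusted p = 0.641). Plagl1 on chromosome 10, a paternal zinc finger factor that acts on other imprinted genes, fell from 41.4, 35.3 and 28.1 to 28.9, 29.8 and 16.6 CPM (-0.49 ± 0.10, adjusted p = 0.0169). Its null replicates 1 and 2 overlapped wild type replicate 3, but each null library was below the wild type library of its number. Peg3, Usp29 and Plagl1 were not called without wild type replicate 1 (adjusted p = 0.124, 0.11 and 0.115), wild type replicate 3 (0.122, 0.143 and 0.124), null replicate 2 (0.0752, 0.114 and 0.0508) or null replicate 3 (0.124, 0.143 and 0.121). Usp29 was also not called after median-ratio scaling (adjusted p = 0.0577).

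A further 5 genes fell by smaller amounts at e11.0. Grb10, a maternal adaptor that restrains insulin and growth factor receptors, was at 1379.8, 1201 and 1266 CPM in wild type and 1059, 1063 and 954 CPM in null hindlimbs (-0.32 ± 0.08, adjusted p = 0.028). Cdkn1c was at 295, 337 and 298 and 231, 252 and 260.1 CPM (-0.32 ± 0.08, adjusted p = 0.0293), again without overlap. Blcap, a small membrane protein gene that contains Nnat in an intron, was at 28.3, 23.6 and 25.2 and 18.96, 18.3 and 20.9 CPM (-0.39 ± 0.09, adjusted p = 0.0295), and Nnat itself at 628, 603 and 363 and 505, 499.9 and 314 CPM (-0.26 ± 0.06, adjusted p = 0.0287), where replicate 3 of both groups was low. Igf2, the fetal growth factor, was at 1265, 1189 and 1671 CPM in wild type and 1033, 1024 and 1319 CPM in null hindlimbs (-0.28 ± 0.07, adjusted p = 0.0302), and null replicate 3 overlapped the wild type. The only rise was that of Ube3a, a ubiquitin ligase whose paternal copy is silent in neurons, from 522, 601 and 319 to 653, 695 and 387 CPM (0.27 ± 0.07, adjusted p = 0.0394).

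Those 6 calls rested on the set of libraries, and 5 of them on the scaling. Each was made in 1 of the 6 fits that left out a library, the one without wild type replicate 2, and in the others adjusted p ran from 0.058 for Blcap without null replicate 1 to 0.189 for Ube3a without null replicate 2. The falls of Grb10, Nnat, Cdkn1c, Blcap and Igf2 were not called after trimmed-mean scaling (adjusted p = 0.0568, 0.0754, 0.0667, 0.0513 and 0.0728). That scaling called 3 imprinted genes higher and 7 lower, adding rises of Rian and Slc38a4, and median-ratio scaling called 4 higher and 6 lower. For all genes those scalings gave 1067 higher and 516 lower calls, and 1326 and 403, in place of 664 and 1179. edgeR called 3 imprinted genes higher and 9 lower, with 1129 and 605 of all genes. The authors' deposited table called 4 higher and 10 lower, with 1707 and 1188 of all genes. With 1 library left out, the imprinted genes called were 1, 18 and 3 without wild type replicates 1, 2 and 3 and 6, 2 and 3 without null replicates 1, 2 and 3. Of all 14027 genes those fits called 116, 5273 and 193, and 1032, 232 and 196.

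The other genes of e11.0 were not called. H19 was at 6066, 6294 and 6715 CPM in wild type and 5043, 4893 and 6809 CPM in null hindlimbs (-0.20 ± 0.10, adjusted p = 0.156), with null replicate 3 above every wild type library. The 5 listed of 6 markers of yolk sac endoderm, a tissue rich in H19 and Igf2, summed in the null libraries to 5.68 to 110 CPM, against 21.2 to 58.0 in wild type, and their part was not tested. Igf2r, which carries Igf2 to the lysosome, was at 349.9, 269 and 368 and 276, 250 and 282 CPM (-0.28 ± 0.10, adjusted p = 0.0739), and passed with the replicate number as a block (adjusted p = 0.019). With that block Copg2, a coat protein subunit, also passed lower (adjusted p = 0.0468) and Rian, a maternal noncoding host of small nucleolar RNAs, higher (adjusted p = 0.0138), from 310.4, 358 and 247 to 367, 432 and 297 CPM. Mest was at 2617, 2149 and 1902 and 2076, 2025 and 1461 CPM (-0.27 ± 0.09, adjusted p = 0.0687), and Gnas, the stimulatory G protein subunit, at 664, 601 and 781 and 603, 553 and 593 CPM (-0.22 ± 0.08, adjusted p = 0.0862). Kcnq1ot1 was at 267, 369 and 241 CPM in wild type and 290.5, 366 and 218 CPM in null hindlimbs (-0.01 ± 0.12, adjusted p = 0.964). The last groups overlapped widely.

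At e11.5 the imprinted genes called by limma in Pitx1 null hindlimbs, on the CPM as deposited, were all lower. Of 36 tested, 10 fell and 0 rose by limma, or 27.8%, where 10.8% of all 13478 genes were called, 7.96% lower and 2.83% higher. The median log2 fold change was -0.15 against -0.02 for all genes, and 31 of the 36 values lay below 0. After trimmed-mean or median-ratio scaling Mest and Zdbf2 were called higher, so that the calls became 2 higher and 9 lower, or 2 and 8. All genes split into 650 higher and 925 lower after trimmed-mean scaling, and into 743 and 919 after median-ratio scaling, in place of 382 and 1073. edgeR called 2 imprinted genes higher and 9 lower, with 686 and 944 of all genes. The authors' deposited table called 2 higher and 10 lower, with 1176 and 1468 of all genes. Its rises were Zdbf2 (adjusted p = 0.00205) and Mest (0.0104). The largest falls were those of Plagl1, Cdkn1c, Asb4, Sgce and Peg10, and each of these 5 was called in all 6 fits that left out a library.

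Plagl1 was at 117, 127 and 119 CPM in wild type replicates 1, 2 and 3 and at 79.8, 72.0 and 66.0 CPM in null hindlimbs at e11.5, without overlap (-0.73 ± 0.06, adjusted p = 0.00057). Asb4 was at 584, 575 and 468 and 413, 383 and 269 CPM (-0.63 ± 0.06, adjusted p = 0.000943), again with every null library below every wild type library. Sgce was at 35.9, 36.6 and 32.7 and 26.9, 25.3 and 19.4 CPM (-0.55 ± 0.07, adjusted p = 0.00264), and Peg10 at 1422, 1426 and 1381 and 1075, 882 and 1089.5 CPM (-0.48 ± 0.08, adjusted p = 0.00734). Neither overlapped between groups. Ppp1r9a of the same cluster was at 68.8, 51.6 and 94.8 CPM in wild type and 57.2, 45.8 and 77.0 CPM in null hindlimbs (-0.24 ± 0.11, adjusted p = 0.176). The replicate block gave it an adjusted p of 0.0234, and it passed also without wild type replicate 2 (0.0474). Grb10 was at 1848, 1773 and 1714 and 1709, 1516 and 1462 CPM (-0.19 ± 0.06, adjusted p = 0.0742) and was called lower with the block (0.0449) and without null replicate 1 (0.0129).

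Cdkn1c (ENSMUSG00000037664, chromosome 7, 143458339 to 143461050, minus strand), the maternal inhibitor of cyclin-dependent kinases, was at 656, 753 and 424 CPM in wild type and 472, 499 and 211 CPM in null hindlimbs at e11.5 (-0.69 ± 0.09, adjusted p = 0.00339). The groups overlapped because wild type replicate 3, from the unstranded run, lay below null replicates 1 and 2, and the shared run alone gave -0.53 (adjusted p = 0.00451). Its exons were overlapped by exons of opposite-strand genes over 30.7% of their length, and in an unstranded library reads of the 2 strands cannot be told apart. Zim1 fell from 49.1, 45.7 and 68.6 to 37.4, 35.2 and 59.1 CPM (-0.32 ± 0.06, adjusted p = 0.0131), a call lost without null replicate 2 (adjusted p = 0.0758). Peg3 fell from 2076, 2286 and 2265 to 1755, 1777 and 1956 CPM (-0.27 ± 0.06, adjusted p = 0.0205), called in 2 of 6 fits, those without wild type replicate 1 and without null replicate 1, and lost without wild type replicate 2 or 3 (0.0804 and 0.0576) or null replicate 2 or 3 (0.0927 and 0.06).

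H19 was at 5174, 5118 and 5728 CPM in wild type and 4004, 4224 and 4922 CPM in null hindlimbs at e11.5, without overlap (-0.29 ± 0.06, adjusted p = 0.02). Igf2, which shares enhancers with H19, was at 4406, 4556 and 4914 and 3914, 3873 and 3879 CPM (-0.25 ± 0.06, adjusted p = 0.0329), likewise without overlap. Both fell by similar small amounts. Gnas was at 1795, 1847 and 109.9 and 1599, 1691 and 82.4 CPM (-0.24 ± 0.06, adjusted p = 0.0443), and was not called with the shared run alone (adjusted p = 0.333), after trimmed-mean scaling (0.0553) or with edgeR (0.0524). H19, Igf2 and Gnas were each called in 1 of 6 fits, that without null replicate 1. In the others adjusted p ran from 0.0577 for H19 without wild type replicate 3 to 0.294 for Gnas without null replicate 3. With 1 library left out, 7, 7 and 7 imprinted genes were called without wild type replicates 1, 2 and 3 and 17, 5 and 7 without null replicates 1, 2 and 3. Of all 13478 genes those fits called 1032, 784 and 465, and 2627, 433 and 471.

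Zdbf2, a paternal gene for a protein with a zinc finger of the DBF type, was at 62.4, 67.1 and 51.7 CPM in wild type and 106, 80.5 and 57.0 CPM in null hindlimbs at e11.5 (0.39 ± 0.11, adjusted p = 0.0523), and passed with the shared run alone (adjusted p = 0.0346) and after trimmed-mean scaling (0.0382). Without wild type replicate 3 it passed as well (0.0375), as it did without null replicate 1 (0.0326) or 3 (0.0379). Mest was at 3117, 3022 and 1952 and 3303, 3567 and 2495 CPM (0.23 ± 0.06, adjusted p = 0.0548) and passed higher after that scaling (0.0419) and without null replicate 1 (0.0146). Dlk1, a paternal ligand of the Notch family that inhibits differentiation, was at 105, 115 and 177 and 93.2, 125.5 and 306 CPM (0.24 ± 0.16, adjusted p = 0.332). Slc38a4, an amino acid transporter, was at 125.9 to 141 CPM in wild type and 129 to 150.0 CPM in null libraries (0.06 ± 0.07, adjusted p = 0.556).

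**Figure D2:**
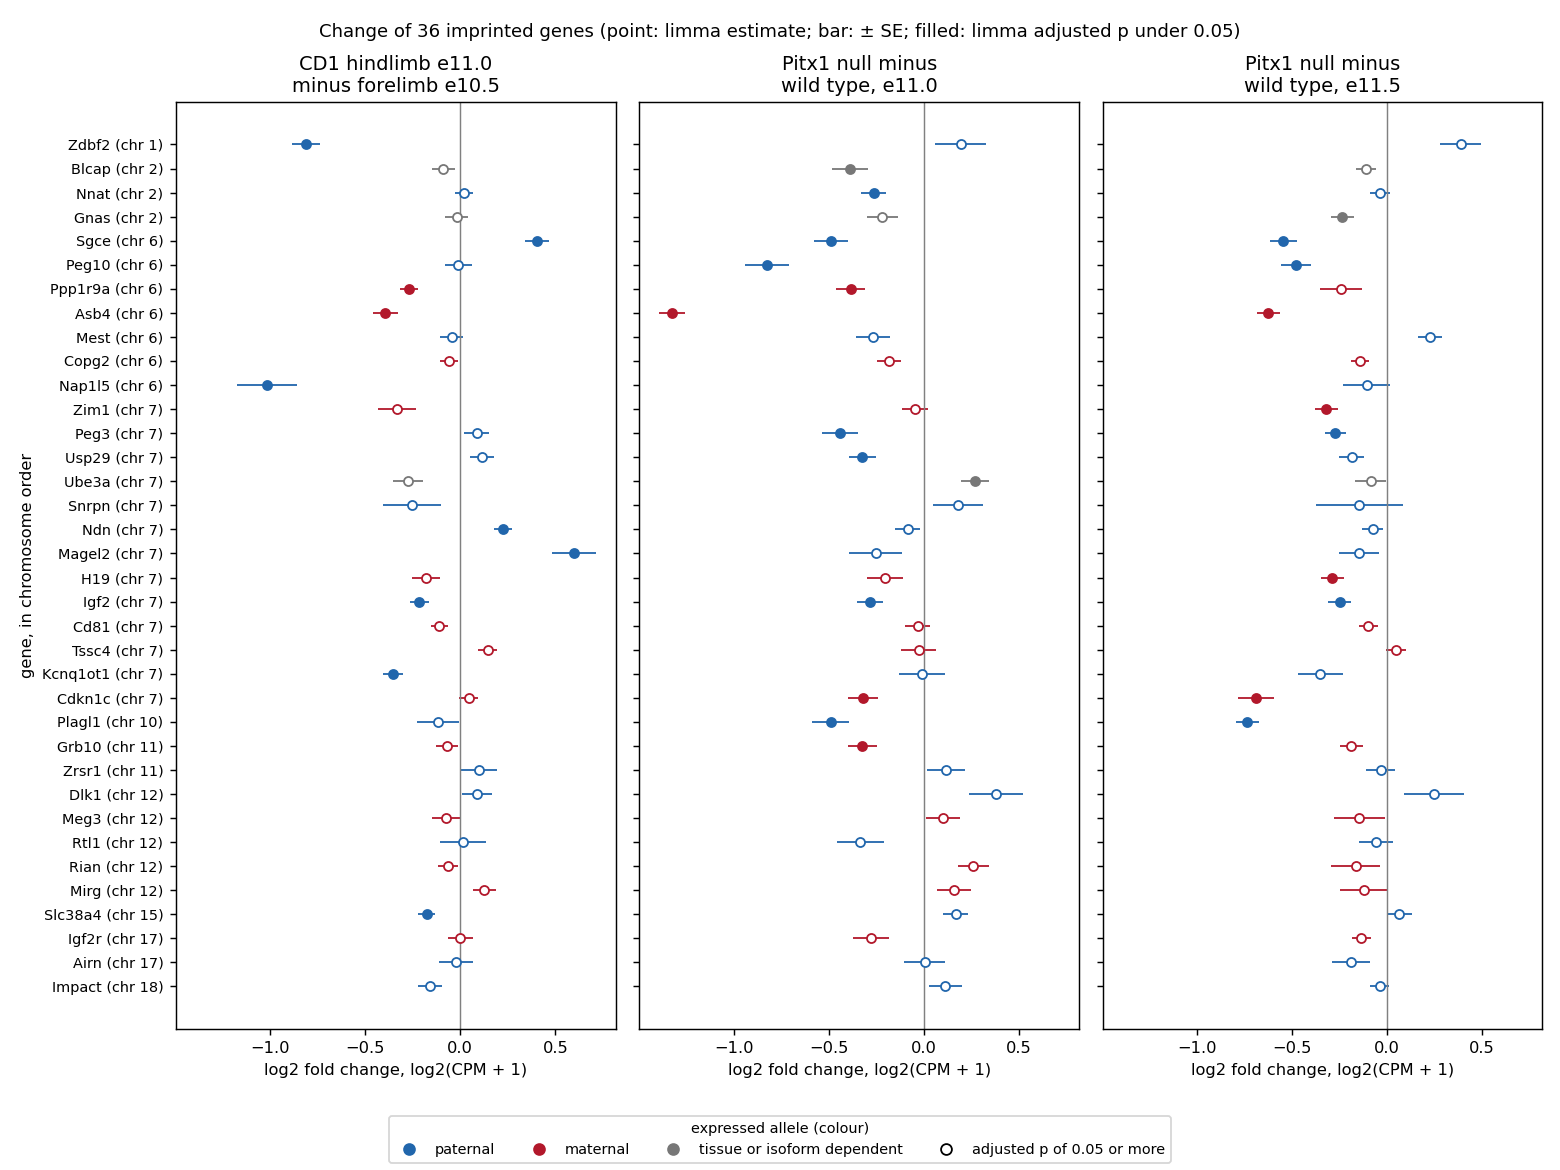
Log2 fold change of 36 imprinted genes (horizontal axes, log2(CPM + 1) scale) in chromosome order (vertical axis), for CD1 hindlimb against forelimb and for Pitx1 null against wild type at both stages. Points are limma estimates, bars their SE, colours the expressed allele, and filled points have an adjusted p under 0.05. Filled points number 10, 13 and 10, and those of the chromosome 6 cluster from Sgce to Asb4 lie below 0 in both Pitx1 panels.

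Between the stages, 7 genes fell at both: Asb4, Peg10, Sgce, Plagl1, Cdkn1c, Peg3 and Igf2. After either scaling Cdkn1c and Igf2 were not called at e11.0, and after median-ratio scaling Igf2 was not called at e11.5 (adjusted p = 0.0551). Another 6 were called at e11.0 alone and 3 at e11.5 alone, which does not show that they differed. The change from wild type to null was then compared between e11.5 and e11.0, stages at which the library type also differed, so that age and library type cannot be told apart. Of 12935 genes found at both stages, 47 (0.363%) differed by limma, and of 35 imprinted genes 1, Asb4. All genes split into 22 higher and 25 lower, into 22 and 47 after trimmed-mean scaling and into 18 and 58 after median-ratio scaling. Its fall was smaller at e11.5, by 0.70 ± 0.10 on the log2 scale (adjusted p = 0.00709). It kept that call in all 12 fits that left out a library (largest adjusted p = 0.0396) and with the shared run alone (0.0254). For Mest the difference was 0.49 ± 0.12, adjusted p = 0.0908, and for Peg10 0.35 ± 0.16, adjusted p = 0.247. Without wild type replicate 2 of e11.0 both passed (adjusted p = 0.00483 and 0.0119), with 2567 of all genes.

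Between CD1 limb buds the imprinted genes differed in both directions. Of 36 tested, 7 were lower and 3 higher in hindlimb at e11.0 than in forelimb at e10.5, or 27.8%, where 5.87% of all 13540 genes were called, 3.46% lower and 2.41% higher. The median log2 fold change was -0.06 against 0.01 for all genes, and the calls were 8 of 31 among genes of at least 10 CPM, where 5.67% of all such genes were called. Nap1l5 and Zdbf2 differed most. Nap1l5, a paternal gene related to nucleosome assembly proteins, was at 3.04, 1.75 and 3.31 CPM in forelimb and 0.743, 0.867 and 0.786 CPM in hindlimb, without overlap (-1.01 ± 0.16, adjusted p = 0.00464). Zdbf2 was at 81.1, 90.1 and 61.5 CPM in forelimb and 43.2, 47.3 and 39.6 CPM in hindlimb, without overlap (-0.81 ± 0.07, adjusted p = 0.000195), and was called in all 6 fits that left out a library.

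Asb4 was at 653, 624 and 602 CPM in CD1 forelimb and 437, 486 and 509 CPM in hindlimb (-0.39 ± 0.06, adjusted p = 0.00553), called in all 6 such fits. Sgce went the other way, from 26.1, 23.4 and 28.3 to 31.5, 32.7 and 40.0 CPM (0.40 ± 0.06, adjusted p = 0.00469), while Peg10 beside it was at 929, 919 and 357 and 827, 875 and 412 CPM (-0.01 ± 0.07, adjusted p = 0.951). Ppp1r9a was at 85.4, 84.6 and 113 and 70.0, 73.5 and 90.0 CPM (-0.27 ± 0.05, adjusted p = 0.00772), with overlap. Kcnq1ot1, the paternal long noncoding RNA that silences Cdkn1c and its neighbours in cis, was at 121, 123 and 391 CPM in forelimb and 95.3, 103 and 283 CPM in hindlimb (-0.35 ± 0.05, adjusted p = 0.00335). Its groups overlapped because replicate 3 of both was high, and all 6 fits called it. Cdkn1c was at 273 to 297 CPM in forelimb and 288 to 308 CPM in hindlimb (0.04 ± 0.05, adjusted p = 0.66).

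Several of the most abundant imprinted genes were not called between the CD1 limbs. H19 was at 6356, 6086 and 6279 CPM in forelimb and 5403, 5521 and 5594 CPM in hindlimb, without overlap (-0.18 ± 0.07, adjusted p = 0.186), and was called lower in the authors' deposited table (0.047). Peg3 was at 2463, 2698 and 1906 and 2586, 2789 and 2101 CPM (0.09 ± 0.07, adjusted p = 0.479), and Mest at 3260.3, 3213 and 2625 and 3071, 3232 and 2519 CPM (-0.05 ± 0.06, adjusted p = 0.705). In both genes replicate 3 was the lowest library of each limb. Plagl1 was at 49.4, 36.7 and 27.2 and 33.7, 39.5 and 28.7 CPM (-0.12 ± 0.11, adjusted p = 0.568), so that it was called at both Pitx1 stages and not between limbs. Grb10 was at 1536 to 1737 CPM in forelimb and 1548 to 1639 CPM in hindlimb (-0.07 ± 0.06, adjusted p = 0.495), and Nnat at 741 to 761 and 744 to 786 CPM (0.02 ± 0.05, adjusted p = 0.856). Cd81, a tetraspanin of the Kcnq1ot1 cluster, was at 131, 141 and 132 and 127, 124 and 125 CPM (-0.11 ± 0.05, adjusted p = 0.202), and Copg2 at 100.3, 105 and 96.7 and 98.03, 94.9 and 96.4 CPM (-0.06 ± 0.05, adjusted p = 0.489).

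Of the Snrpn cluster of central chromosome 7, the neighbouring paternal genes Magel2 and Ndn, of the MAGE family, were higher in CD1 hindlimb. Magel2 was at 1.85, 1.88 and 2.06 CPM in forelimb and 3.45, 2.72 and 4.25 CPM in hindlimb (0.60 ± 0.11, adjusted p = 0.0139). Ndn was at 91.0, 89.9 and 79.0 and 103, 103 and 97.8 CPM (0.22 ± 0.05, adjusted p = 0.0197), a call lost with the replicate block (adjusted p = 0.0521). Neither overlapped between groups. Igf2 was at 1657, 1688 and 941 CPM in forelimb and 1435, 1444 and 809 CPM in hindlimb (-0.22 ± 0.05, adjusted p = 0.0333), and Slc38a4 at 225, 227 and 172 and 191, 202 and 157 CPM (-0.18 ± 0.04, adjusted p = 0.0487). Both overlapped, and both calls were lost with the block (0.0948 and 0.102).

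Leaving out 1 library moved these CD1 calls. The imprinted genes called were 10, 9 and 4 without forelimb replicates 1, 2 and 3 and 5, 7 and 3 without hindlimb replicates 1, 2 and 3. Of all 13540 genes those fits called 1191, 616 and 460, and 394, 452 and 462. Igf2 and Slc38a4 were called only without forelimb replicate 1, with adjusted p from 0.0886 for Igf2 without forelimb replicate 2 to 0.257 for Slc38a4 without hindlimb replicate 1. Ndn was called without forelimb replicate 1 or 2, and its largest adjusted p was 0.12, without hindlimb replicate 3. Magel2 and Ppp1r9a were lost without forelimb replicate 3 (0.105 and 0.0687), hindlimb replicate 1 (0.0832 and 0.06) and hindlimb replicate 3 (0.111 and 0.0672). Nap1l5 was lost without replicate 3 of forelimb (0.0575) or hindlimb (0.0536), and Sgce without hindlimb replicate 3 (0.0518).

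The calls were made with a term for the run. Without it limma called 0 imprinted genes in each of the 3 comparisons, with 6, 9 and 7 at an unadjusted p under 0.05 in CD1, at e11.0 and at e11.5 (of which 3, 9 and 7 were lower). The smallest adjusted p was then 0.0704, for Plagl1 at e11.5. edgeR on reads recovered from the CPM, with the same terms, called 10, 12 and 11 imprinted genes, and the authors' deposited table called 13, 14 and 12. In each comparison every called imprinted gene changed in 1 direction in all 3 same-numbered pairs. Those pairs hold the same libraries as the fits, so this is no separate support.

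Genes taken as maternal and genes taken as paternal both fell in Pitx1 null hindlimbs. Which allele limb buds express was not measured for any of them. By limma 4 of 13 maternal and 7 of 19 paternal genes fell at e11.0, and 4 of 13 and 5 of 20 at e11.5, with 0 of either rising. The median log2 fold change of maternal genes was -0.18 at e11.0 and -0.17 at e11.5, that of paternal genes -0.25 and -0.13. In CD1 2 of 13 maternal genes were lower and 0 higher, against 5 lower and 3 higher of 20 paternal genes. Of all genes 3.46% were lower and 2.41% higher there. In the chromosome 6 cluster, maternal Asb4 and paternal Peg10 and Sgce fell together at both stages, and in the Igf2 cluster maternal H19 and paternal Igf2 fell together at e11.5.

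By cluster, all 4 genes followed here of the Peg10 and Sgce cluster fell at e11.0 (median -0.66) and 3 of 4 at e11.5 (median -0.51). Of all genes 8.41% fell at e11.0 and 7.96% at e11.5. In the Peg3 cluster 2 of 3 fell at each stage, Peg3 and Usp29 at e11.0 and Peg3 and Zim1 at e11.5. In the Dlk1 to Dio3 cluster of chromosome 12, 0 of 5 genes were called in any of the comparisons by limma with the run term. At e11.0 Dlk1 was at 32.7 to 61.5 CPM in wild type and 52.1 to 63.3 CPM in null libraries (0.38 ± 0.14, adjusted p = 0.0886) and Rtl1 at 1.67 to 1.80 and 1.06 to 1.33 CPM (-0.33 ± 0.12, adjusted p = 0.0842). After median-ratio scaling Dlk1 and Rian passed higher there (0.049 and 0.0249). In the authors' deposited table Rian (adjusted p = 0.0116) and Dlk1 (0.0331) were called higher at e11.0 and Rtl1 lower (0.0490). Snrpn, under the identifier used here, had log2 fold changes of -0.25 in CD1, 0.18 at e11.0 and -0.15 at e11.5 (adjusted p = 0.358, 0.344 and 0.705). The coding genes Impact, Tssc4, Cd81 and Zrsr1 and the noncoding Airn, Meg3 and Mirg were called in no comparison, with log2 fold changes from -0.19 for Airn at e11.5 to 0.16 for Mirg at e11.0. Over the 18 libraries Impact, a regulator of translation, was at 49.0 to 110.5 CPM, Tssc4 at 35.4 to 72.1, Zrsr1, a splicing factor retrogene, at 6.90 to 9.82, Airn at 3.65 to 10.9, Meg3 at 30.1 to 175 and Mirg at 3.80 to 57.0 CPM.

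The genes around Asb4 were counted next, imprinted or not. The window was set around a gene already found to fall and was tried after the data had been seen. Counts that hold Asb4 and its cluster are thus no separate support. Within 1 Mb of its start 13 genes were listed at e11.0, where 8.41% of all genes fell and 4.73% rose. Of the 13, 6 fell and 0 rose (2 falls without wild type replicate 1, 3 without null replicate 3 and 4 to 6 without the others). Beside the 4 of the cluster these were Col1a2, a chain of type I collagen (-0.60 ± 0.10, adjusted p = 0.00852), at -879 kb from the Asb4 start, and Casd1, a sialic acid acetyltransferase (-0.42 ± 0.07, adjusted p = 0.0064), at -783 kb, where negative distances lie on the side of Peg10. Of the 9 genes of the window at e11.0 that are not on the list of 39, these 2 fell and 0 rose. At e11.5, where 7.96% of all genes fell and 2.83% rose, 12 were listed. Of the 12, 6 fell and 2 rose (3 to 7 falls with 1 library left out, the fewest without null replicate 2 or without replicate 3 of either group). Casd1 (-0.29 ± 0.06, adjusted p = 0.0149), Pon3, a paraoxonase (-0.35 ± 0.08, adjusted p = 0.0334), and Gm44250 (-0.38 ± 0.09, adjusted p = 0.026) fell beside Asb4, Sgce and Peg10. On the other side of Asb4, Dync1i1, a dynein subunit 342 kb away (0.48 ± 0.09, adjusted p = 0.0115), and Slc25a13, a mitochondrial carrier 658 kb away (0.24 ± 0.05, adjusted p = 0.0255), rose. Of the 8 genes at e11.5 that are not on that list, 3 fell and 2 rose. Neither rise was called without replicate 3 of either group, and 1 of them without wild type replicate 1 or 2 or null replicate 2. Pon2, closest to Asb4 on the side of Peg10 at -119 kb, had log2 fold changes of 0.04 at e11.0 and -0.01 at e11.5. Pon2 and Pon3 are on the list of other imprinted genes and are counted there below. Pon3 was not called at e11.0. Casd1 was not called without null replicate 3 at either stage, nor at e11.5 without null replicate 2 or wild type replicate 3, and Pon3 and Gm44250 were called in 1 of 6 fits that left out a library. Asb4, Sgce, Peg10 and Casd1 fell at both stages with all libraries, while Pon2, which was singled out after its values were seen and lies between Peg10 and Asb4, was called at neither.

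**Figure D3:**
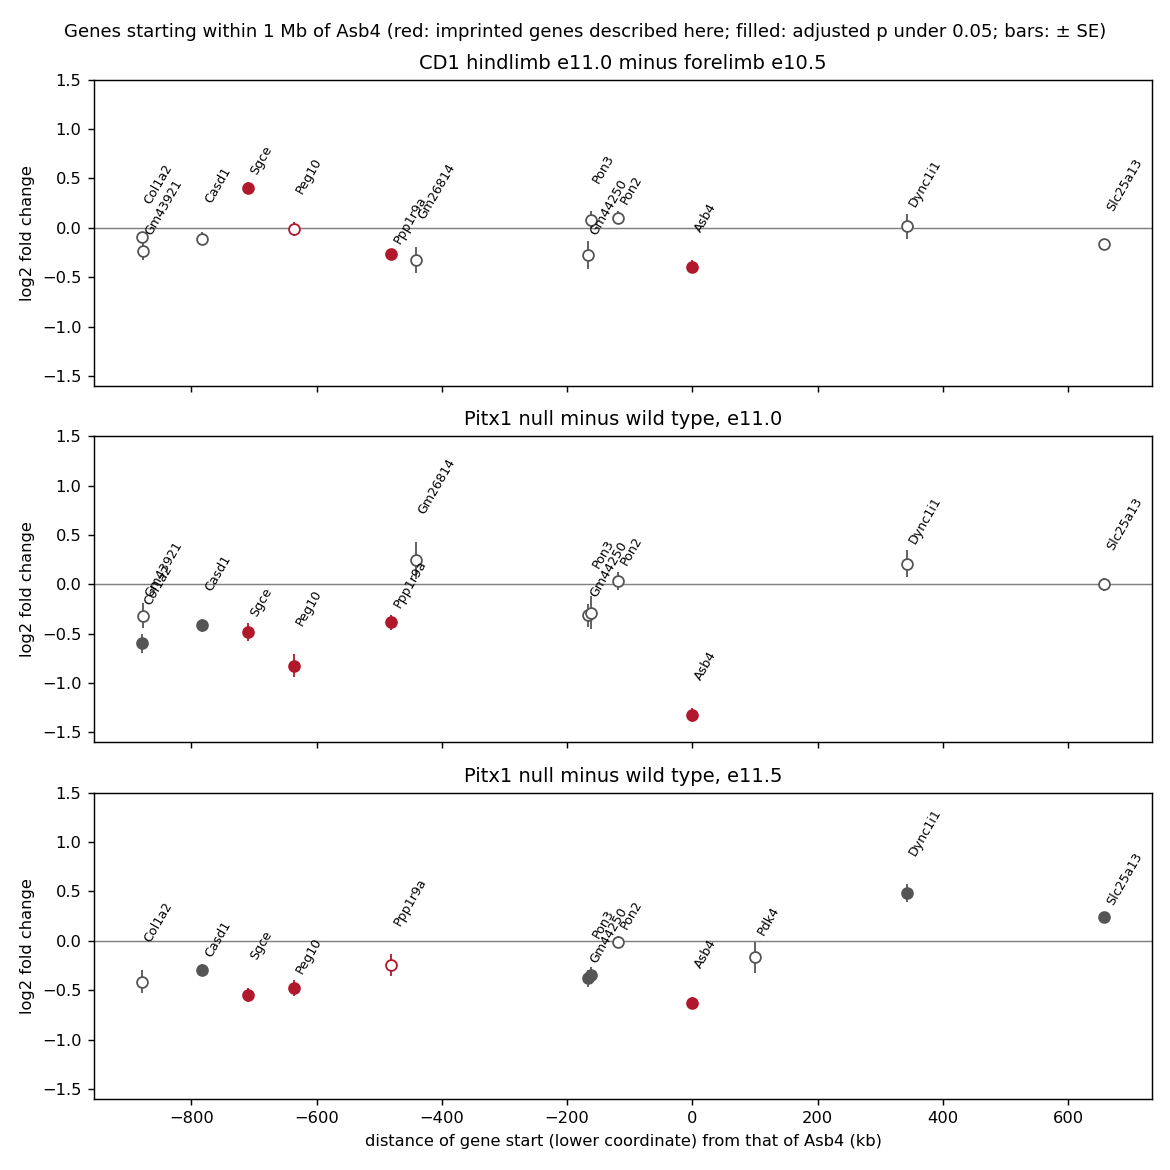
Log2 fold change (vertical axes) of genes that start within 1 Mb of Asb4, by distance from the Asb4 start in kb (horizontal axis), in the CD1 comparison and in Pitx1 null against wild type at both stages. Red points are imprinted genes of the list, filled points have a limma adjusted p under 0.05 and bars are SE. At e11.0 Asb4 lies at -1.32 and Pon2 beside it at 0.04.

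Genes tied to these were read from the same fits. Another list held 38 genes taken as imprinted, with no measure of their imprinting in limb buds. Of these 23, 23 and 25 were listed in CD1, at e11.0 and at e11.5. None was called in CD1 by limma or edgeR, and the authors' table called 1. At e11.0 3 fell and 1 rose, where 8.41% of all genes fell, and at e11.5 8 fell and 0 rose, where 7.96% fell (at e11.0, 8 falls without wild type replicate 2 and 1 without any other library; at e11.5, 2 without replicate 3 of either group, 3 without null replicate 2, 4 without wild type replicate 2 and 7 or 8 otherwise). The e11.0 fit without wild type replicate 2 called 3525 of all 14027 genes lower. At e11.0 trimmed-mean scaling left 1 fall and 1 rise, and the block gave 6 falls and 1 rise. Phactr2, a regulator of protein phosphatase 1, fell at both stages (-0.59 ± 0.08, adjusted p = 0.00348 at e11.0 and -0.76 ± 0.07, adjusted p = 0.000713 at e11.5), as did Osbpl5, an oxysterol-binding protein (-0.32 ± 0.09, adjusted p = 0.0488 and -0.48 ± 0.08, adjusted p = 0.00593). Gab1, a receptor adaptor (-0.37 ± 0.07, adjusted p = 0.0112), and the noncoding Peg13 (-0.35 ± 0.07, adjusted p = 0.0137) fell at e11.5.

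The insulin-like growth factor axis, through which Igf2, Igf2r and Grb10 act, was also counted. In CD1 2 of 12 listed genes were higher in hindlimb, Igf1 (1.10 ± 0.12, adjusted p = 0.000603) and the receptor substrate Irs2 (0.38 ± 0.06, adjusted p = 0.00309), and 2 were lower, Insr and Igfbp3 (1 without any library but forelimb replicate 1). In Pitx1 null hindlimbs 2 of 12 fell at e11.0, against 8.41% of all genes, the binding proteins Igfbp2 (-0.33 ± 0.07, adjusted p = 0.0227) and Igfbp3 (-0.37 ± 0.08, adjusted p = 0.0233). At e11.5 5 of 12 fell, Igfbp2 (-0.60 ± 0.08, adjusted p = 0.00309), Igfbp3 (-0.45 ± 0.05, adjusted p = 0.00123), Igfbp5, Irs1 and Irs2, and 0 rose, against 7.96% and 2.83% of all genes. With 1 library left out the e11.0 falls numbered 0 to 10, with 10 without wild type replicate 2 and 0 without wild type replicate 1 or 3 or null replicate 2 or 3, and with the replicate block 8. Of all 14027 genes the fit without wild type replicate 2 called 3525 lower, and the block 2386. The e11.5 falls numbered 2 to 7, with 2 without replicate 3 of either group, 3 without replicate 2 of either and 7 without null replicate 1. The fit without null replicate 1 called 1662 of all 13478 genes lower.

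Of 13 genes that act on imprints or on DNA methylation, some of which remove it, 5 fell at e11.0, against 8.41% of all genes. These were the DNA methyltransferases Dnmt1 (-0.35 ± 0.09, adjusted p = 0.0323) and Dnmt3a (-0.36 ± 0.08, adjusted p = 0.0249), the demethylating enzymes Tet1 and Tet2, and the histone methyltransferase Ehmt2. That count was 1 with trimmed-mean and 0 with median-ratio scaling, 1 with edgeR, 4 by the authors' deposited p-values and 8 when the replicate was a block. With 1 library left out it was 9 without wild type replicate 2, 2 without null replicate 1 and 0 without any of the other 4. The fit without wild type replicate 2 called 3525 of all 14027 genes lower. At e11.5 1 of 13 rose, Uhrf1, which brings Dnmt1 to DNA (0.24 ± 0.04, adjusted p = 0.0126), and 0 fell. That call was lost without replicate 2 or 3 of either group, and without null replicate 1, 1 rose and 3 fell. Of the 13, Tet1 was lower in CD1 hindlimb (-0.24 ± 0.05, adjusted p = 0.015), except without hindlimb replicate 1 or 2.

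Noncoding imprinted RNAs differed in level between the library types. The means of wild type replicates 1 and 2, all of the shared run, are set side by side here with no test, since the tables were normalized separately and stage and library type cannot be told apart. Kcnq1ot1 was at 318 CPM at e11.0 after ribosomal depletion and at 13.4 CPM at e11.5 after mRNA enrichment, 23.7-fold lower. Mirg, a noncoding host of microRNAs, was at 48.0 and 4.75 CPM (10.1-fold), Rian at 334 and 93.8 CPM (3.56-fold) and Airn, the paternal antisense RNA that silences Igf2r, at 8.25 and 4.27 CPM (1.93-fold). H19 and Meg3, a maternal RNA of the Dlk1 cluster, were nearly level, at 6180 and 5146 CPM and at 38.4 and 39.3 CPM. Over the 6 noncoding genes the median log2 ratio of e11.5 to e11.0 was -1.39, over 29 coding genes 0.33 and over the 12929 genes with means above 0.5 CPM in both 0.18.

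Coding genes differed both ways between these libraries. Snrpn, a splicing factor subunit transcribed with small nucleolar RNA hosts, was 7.98-fold lower at e11.5 (31.6 against 3.96 CPM) and Ube3a 2.95-fold lower (561 against 190.0 CPM). Igf2 was 3.65-fold higher at e11.5, Plagl1 3.19-fold, Peg10 and Dlk1 2.91-fold, Gnas 2.88-fold, Cdkn1c 2.23-fold and Asb4 1.56-fold. The ratio of H19 to Igf2 CPM was 3.61 to 6.91 in the 12 libraries of ribosomal depletion and 1.02 to 1.27 in the 6 of mRNA enrichment.

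**Figure D4:**
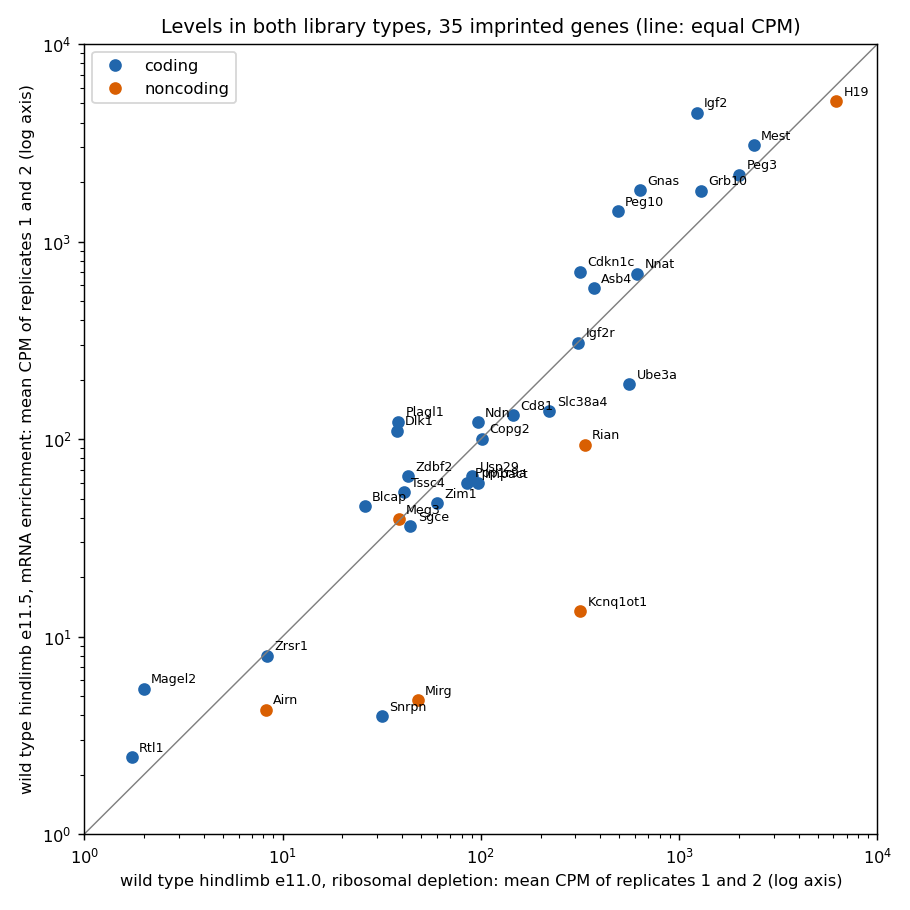
Mean CPM of replicates 1 and 2 of wild type hindlimb at e11.0, ribosomal depletion (horizontal, log axis), against e11.5, mRNA enrichment (vertical, log axis), for 35 imprinted genes. Orange points are noncoding and blue points coding genes, and the line marks equal CPM. Kcnq1ot1, Mirg, Snrpn (under the identifier used here) and Rian lie below the line, and H19 lies close to it.

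Levels also differed among libraries of 1 type. In CD1, Kcnq1ot1 was at 121, 123 and 391 CPM in forelimb replicates 1, 2 and 3. Snrpn, under the identifier used here, was at 18.2, 11.02 and 38.7 CPM and Rian at 152, 136 and 252 CPM. Each was highest in replicate 3. Igf2r went the other way (571, 669 and 299 CPM), as did Peg10 (929, 919 and 357 CPM). In the hindlimb libraries Kcnq1ot1 (95.3, 103 and 283 CPM) and Igf2r (648, 623 and 283 CPM) were again highest and lowest in replicate 3, respectively. Between CD1 and wild type BALB/c hindlimb at e11.0, both of the shared run and of ribosomal depletion but normalized apart, Kcnq1ot1 was at 99.1 and 318 CPM, Mirg at 20.4 and 48.0 CPM, Ube3a at 260.2 and 561 CPM and Igf2r at 636 and 309 CPM. Strain and table cannot be told apart in these values.

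The unstranded libraries of e11.5 stood apart from the stranded ones of the same stage for several imprinted genes. Gnas was at 1795, 1847 and 109.9 CPM in wild type at e11.5, a log2 ratio of -4.04 of replicate 3 to the mean of replicates 1 and 2, and in null hindlimbs the ratio was -4.30. These were the 9th and 7th lowest of 13478 genes. Ube3a had ratios of -1.07 in wild type and -1.39 in null hindlimbs, Cdkn1c -0.73 and -1.20, and Mest -0.65 and -0.46. Exons of opposite-strand genes overlapped 22.0% of the exon length of Gnas (Gm20721 and Nespas), 27.3% of Ube3a, 30.7% of Cdkn1c and 23.1% of Mest. Copg2 (17.8%) and Usp29 (14.3%) had overlap too, with wild type ratios of -0.08 and 0.11. In the other direction, Meg3 (46.1, 32.5 and 151 CPM in wild type, ratio 1.92, the 32nd highest), Mirg (1.38) and Rian (1.01) were higher in the unstranded libraries, with an overlap of 6.79% for Meg3 and of 0% for Mirg and Rian. The part of strand, run and library preparation in these ratios was not tested, and whether counting used strand is not given in the sources used here.

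**Figure D5:**
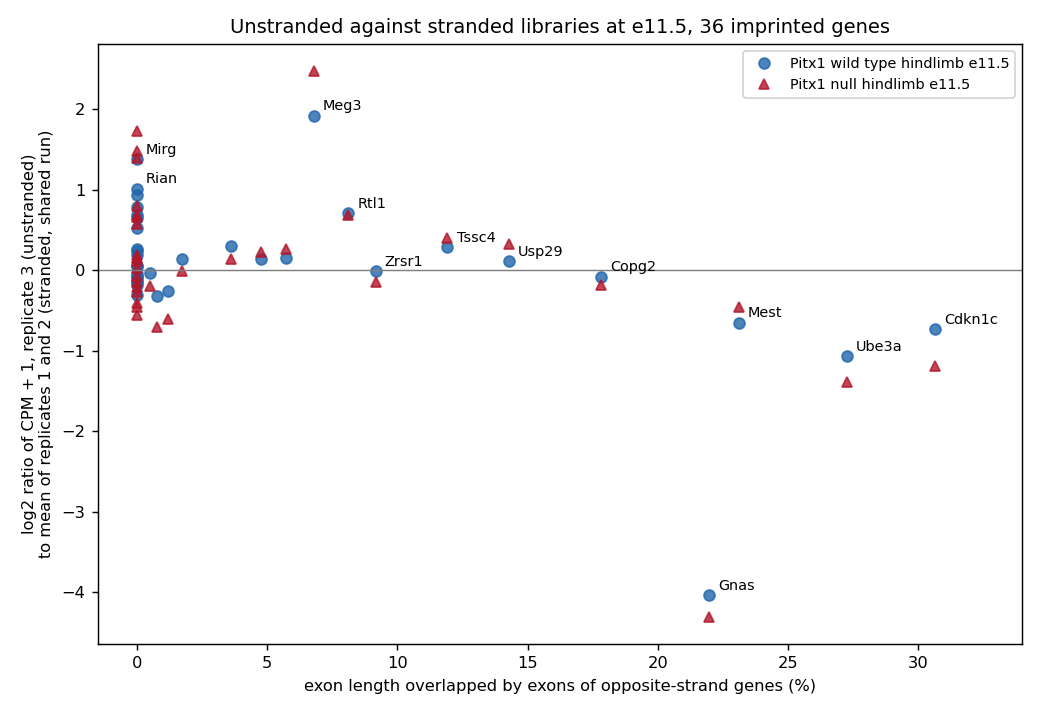
Log2 ratio of CPM + 1 in replicate 3 (unstranded) to the mean of replicates 1 and 2 (shared run, stranded) at e11.5 (vertical axis) against the percent of exon length overlapped by opposite-strand exons (horizontal axis), for 36 imprinted genes. Circles are wild type and triangles Pitx1 null hindlimbs. Gnas lies near -4 in both groups and Meg3 near 2.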

How the data were processed

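RNA of 18 limb bud libraries was read from 3 deposited tables. Alignment with STAR to mm10 (GRCm38), counting with featureCounts and use of edgeR are per the submitters' processing notes, while versions and the strand setting are not given in the sources used here. The authors deposited CPM scaled to the listed genes, log2 fold changes and average log2 CPM, a likelihood-ratio score and p-values, unadjusted and adjusted, per the file headers. The CPM came out as whole reads for 100% of values within 0.01 read, which gave the depths.

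Each table was fitted with limma 3.58.1 (R 4.3.3, limma-trend) on log2(CPM + 1) with group and run terms, leaving 3 residual degrees of freedom. Its two-sided p-values were adjusted per table by the Benjamini-Hochberg method, every listed gene included, and called under 0.05. This scale understates changes of low genes. A test of the change at e11.5 minus that at e11.0 used 12935 genes. edgeR 4.0.16 ran on the recovered reads as an alternative. Kcnq1ot1 and Peg13 had no symbol in the files and were found by identifier, and Snrpn was taken under the files' symbol. Identifiers matched GENCODE M 21 for 13513, 13998 and 13457 genes, and antisense overlap and lengths come from it.

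Genes were named by rule: all with a row are named, and values in each library are given for those called in a comparison or at a mean of at least 100 CPM in a group, in at least 1 comparison. The genes and lists were chosen with earlier results of these data known. Deviations from group means correlated across genes between same-numbered libraries (0.69, 0.80 and 0.94 for CD1, 0.66, 0.64 and 0.86 for e11.0, 0.73, 0.83 and 0.91 for e11.5). The shared run contributes, and replicates 1 and 2 crossed gave 0.75 and 0.85, 0.53 and 0.41, and 0.63 and 0.63. The numbers come from the titles and were taken to pair the libraries, and a replicate block was run as an alternative.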

Additional observations from a re-analysis of the deposited data

Results flagged for a closer look

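The change of Asb4 from wild type to Pitx1 null hindlimbs differed between e11.5 and e11.0 by 0.70 on the log2 scale by limma's interaction test, an adjusted p of 0.00709 over 12935 genes. The change was -1.32 at e11.0 and -0.63 at e11.5. Null libraries were below the wild type library of the same number in 3 of 3 pairs at each stage. Age and library type cannot be told apart in this difference. In a fit without the run term it was not called.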

How the results depend on the processing

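Without the run term 13, 5 and 11 genes were called in CD1, at e11.0 and at e11.5, with 705, 1401 and 1138 at an unadjusted p under 0.05, and 0 imprinted genes in each. The test between stages then gave 0 genes in place of 47 (335 at an unadjusted p under 0.05). The run shared by replicates 1 and 2 alone gave 471, 199 and 483 genes, 4, 3 and 7 imprinted genes and 18 between stages. The authors' deposited adjusted p called 1689, 2895 and 2644 genes, in place of 795, 1843 and 1455. The replicate block gave 640, 3442 and 1437 genes, 7, 16 and 12 imprinted genes in place of 10, 13 and 10, and 210 between stages, where median-ratio scaling gave 76. Beyond the genes named in the report as gained or lost under it, the block changed no call of an imprinted gene. With 1 library left out the counts ran from 394 to 1191 genes in CD1, 116 to 5273 at e11.0, 433 to 2627 at e11.5 and 10 to 2567 between stages. The imprinted genes called then numbered 3 to 10, 1 to 18, 5 to 17 and, between stages, 1 to 8.

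Over single imprinted genes, 1868 alternative values were computed. Of these 1645 kept their direction and side of the threshold, 173 fell short of it, 50 newly passed it and 0 changed the sign of a called change. A pseudocount of 0.25, a minimum mean of 1 CPM and CPM rescaled without the imprinted genes lost only Slc38a4 in CD1, with the pseudocount (0.0503). Depth limits genes near 1 CPM, where 1 read was worth up to 0.0575 CPM. The counts around Asb4 were tried after the data had been seen.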

Other observations

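The symbol Snrpn was tied to more than 1 identifier. The report's Snrpn is ENSMUSG00000000948, the identifier to which the files give that symbol, while GENCODE M 21 gives it to ENSMUSG00000102252, which has no symbol in the files. The second identifier was at 18.1, 15.5 and 24.1 CPM in CD1 forelimb and 17.2, 22.1 and 25.2 CPM in CD1 hindlimb. At e11.0 it was at 19.2, 17.3 and 12.97 CPM in wild type and 17.1, 13.9 and 10.8 CPM in null hindlimbs, and at e11.5 at 38.3, 38.0 and 34.5 and at 43.5, 43.7 and 38.6 CPM. Its log2 fold changes by limma were 0.16 ± 0.10 (adjusted p = 0.366) in CD1, -0.23 ± 0.10 (adjusted p = 0.128) at e11.0 and 0.18 ± 0.05 (adjusted p = 0.0573) at e11.5. Under the identifier that carries the symbol, wild type levels were lower at e11.5 than at e11.0, whereas under the second they were higher.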
